A study of Homo sapiens with 6 samples.

Results

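The genes described here are 7 caspases and 1 caspase-activating scaffold: the inflammatory caspases CASP1 and CASP4, the apoptotic caspases CASP2, CASP6, CASP8, CASP9 and CASP10, and APAF1. They were chosen by gene name, with earlier results of these data known, and are 8 of 57290 annotated genes. RNA was compared between KMM1 cells, an established human multiple myeloma line, that had been given a lentivirus carrying TAZ and KMM1 cells that had been given the empty vector WPI. TAZ is the transcriptional co-activator of the Hippo pathway encoded by WWTR1. Both groups were therefore transduced cells, RNA was taken 4 days after transduction, and each group had 3 polyadenylated RNA libraries, called control 1 to 3 and TAZ 1 to 3. Separate cultures are not named in the labels, and each p-value therefore reflects library-to-library spread that may be technical. The labels also do not say which libraries shared a sequencing chip.

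Caspases are cysteine proteases that cut after aspartate and are made as inactive precursors. CASP1 is activated in inflammasomes, where it processes interleukin-1β and interleukin-18 and cuts gasdermin D, and CASP4 binds intracellular lipopolysaccharide and also cuts gasdermin D. In apoptosis, CASP8 and CASP10 are recruited to death receptors through FADD, CASP9 is activated on the apoptosome built by APAF1 and cytochrome c, CASP2 is activated on the PIDDosome, and CASP6 is an effector that cuts nuclear lamins.

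The values are TPM, the read density of a transcript relative to the total density of its library, summed over the transcripts of a gene and scaled between libraries. They are levels per base of transcript and can be compared between genes. WWTR1 lay between 1.21 and 2.35 scaled TPM in the controls and between 137.5 and 365.1 in the TAZ libraries, so the targeted gene matched every label. Aligned bases ranged from 1100 to 2033 megabases per library, and between 73.6% and 75.9% of them lay on annotated transcripts. Across all genes, 623 of 19390 tested passed limma at an adjusted p under 0.05, 436 higher and 187 lower in TAZ libraries, and control 3 stood apart from the other libraries on the second principal component. Of the markers checked, all 9 plasma cell genes were detected and summed to between 2406 and 3129 scaled TPM in controls and between 2837 and 3233 in TAZ libraries, and 3 of them (SDC1, IRF4 and SLAMF7) fell. The 4 B cell markers summed to at most 0.36 in any control and 0.53 in any TAZ library. The 12 myeloid markers summed to between 5.09 and 6.32 in controls and between 2.22 and 2.78 in TAZ libraries. CD68, MNDA, S100A9 and S100A12 were at 0 in every library. CD14, the only 1 of the 12 tested, was 4.23 ± 0.866 (SD, n = 3) in controls. It fell to 1.51 ± 0.213 (SD, n = 3) in TAZ libraries (adjusted p = 0.0435, limma). The 6 T and NK cell markers summed to between 1.82 and 2.27 in controls and between 2.62 and 3.23 in TAZ libraries, and the 4 fibroblast markers to between 1.88 and 2.63 and between 2.73 and 3.06. The 5 epithelial or packaging line markers summed to between 194.4 and 321.6 in controls and between 957.4 and 2293 in TAZ libraries. Among them KRT8, between 864.2 and 2217 in TAZ libraries, and KRT18 rose. EPCAM and CDH1 did not pass, and KRT19 was at or below 0.113 in every library. CDH1 was below all controls in every TAZ library (log2 difference -0.94, adjusted p = 0.161, limma). Of the 9 plasma cell genes, 4 were below all controls in every TAZ library, beside 14.8% of all tested genes. IGJ, the gene with the highest mean of the 9 in both groups, was the 1 above all controls, beside 10.1%. The median log2 difference of the 9 was -0.69. The plasma cell and B cell sums overlapped between the groups, and the other sums did not. The part of these sums in the results below was not tested.

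CASP1 and CASP4 lie in one cluster on chromosome 11 with CARD16, a short relative that carries the caspase recruitment domain (CARD) of CASP1 without the protease. In all 3 genes the second exon codes for most of this domain. The coding sequence of that exon is shown because reads that lie within it can be assigned to CASP1 or CARD16 only at the few bases that differ. That exon was also the deepest of the CASP4 coding transcript, by depth per base. The sequences were taken from GENCODE 29 transcripts on GRCh38, whereas the deposited files use hg19, and all 3 lie on the minus strand: chr11:105034208-105034474 for CASP1, chr11:105044392-105044658 for CARD16 and chr11:104954747-104955001 for CASP4. Capitals mark the bases at which CASP1 and CARD16 differ.
CASP1 exon 2: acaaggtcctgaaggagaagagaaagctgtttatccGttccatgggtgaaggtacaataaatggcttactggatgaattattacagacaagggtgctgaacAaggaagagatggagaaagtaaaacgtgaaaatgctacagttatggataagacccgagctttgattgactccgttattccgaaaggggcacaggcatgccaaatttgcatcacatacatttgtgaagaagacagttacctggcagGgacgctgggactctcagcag
CARD16 exon 2: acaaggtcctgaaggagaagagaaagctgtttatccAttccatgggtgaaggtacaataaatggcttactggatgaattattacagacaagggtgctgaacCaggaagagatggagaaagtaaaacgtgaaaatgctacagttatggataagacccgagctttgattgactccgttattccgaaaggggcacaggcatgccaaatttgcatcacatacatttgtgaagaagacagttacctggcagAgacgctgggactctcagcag
CASP4 exon 2: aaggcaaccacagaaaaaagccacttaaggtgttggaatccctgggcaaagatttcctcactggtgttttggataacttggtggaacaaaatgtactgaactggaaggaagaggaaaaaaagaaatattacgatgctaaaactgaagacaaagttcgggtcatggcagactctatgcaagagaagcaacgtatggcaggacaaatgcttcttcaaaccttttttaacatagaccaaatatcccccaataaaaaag
CASP1 and CARD16 shared 264 of 267 bases (98.9%), with an identical run of 144 bases. Of the 637 windows of 50 bases in the CARD16 transcript, 118 (18.5%) also occurred in the CASP1 transcript. CASP4 was identical to CASP1 at 45.5% of aligned positions in this exon, and none of its 2109 windows of 50 bases occurred in CASP1.

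By summed TPM, the 2 inflammatory caspases lay above the controls in every TAZ library, while no apoptotic caspase did; by depth over coding exons, described below, CASP10 did so too. Neither passed the test after adjustment over all tested genes. In limma, 0 of the 8 genes passed at an adjusted p under 0.05, against 3.21% of all tested genes, of which 2.25% were higher, and 2 of the 8 (CASP1 and CASP4) had an unadjusted p under 0.05, against 18% of all tested genes. Every TAZ library was above every control for these 2 genes, against 10.1% of tested genes, and every TAZ library was below every control for 2 others, CASP8 and CASP9, against 14.8%. The median log2 difference, TAZ minus control, was 1.01 for the 2 inflammatory caspases and -0.01 for the 5 apoptotic caspases with APAF1, beside -0.05 for all tested genes.

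**Figure D1:**
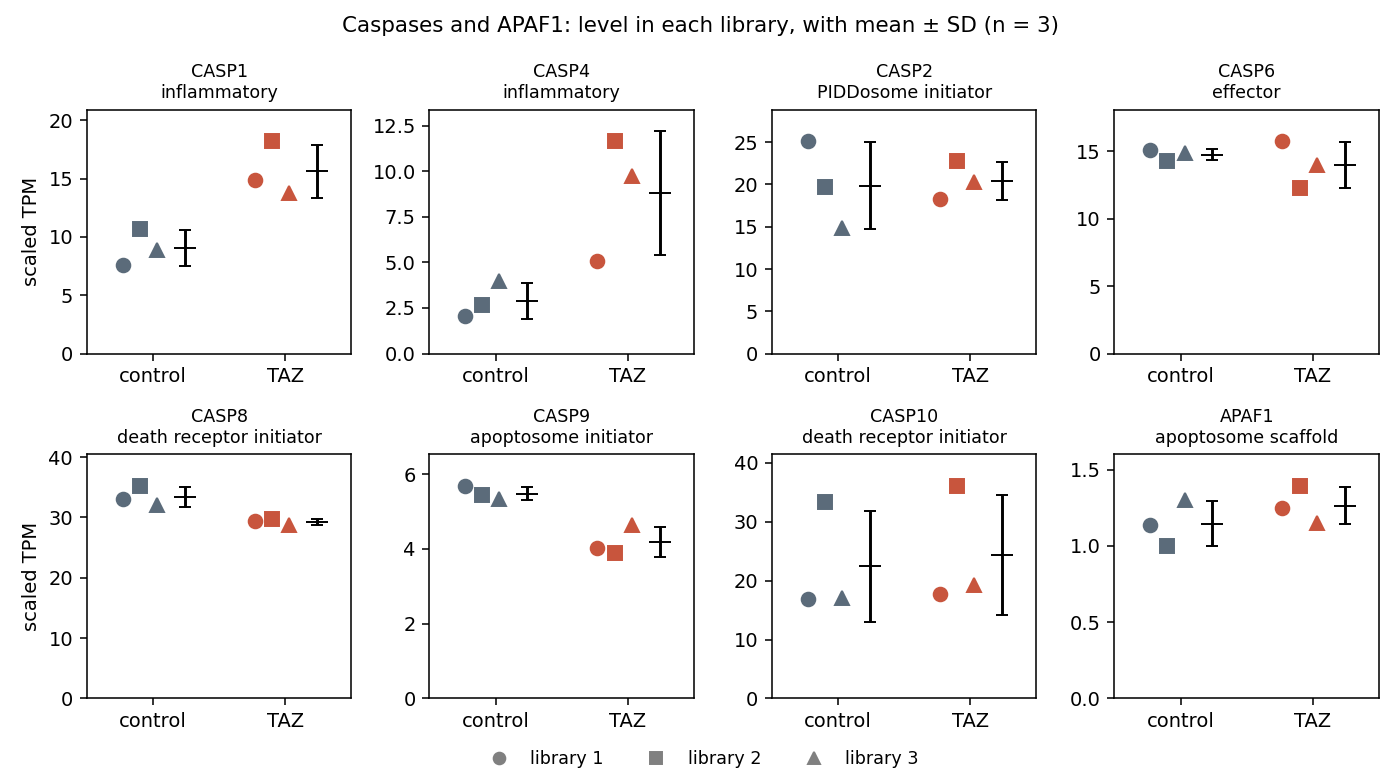
Level of each gene (scaled TPM, linear axes from 0, a different range in each panel) in 3 control and 3 TAZ libraries; symbols give the library number, and black marks give mean ± SD (n = 3). CASP1 and CASP4 separate upwards, CASP8 and CASP9 separate downwards by a smaller margin, and the groups overlap for the other 4 genes.

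CASP1 (ENSG00000137752.18, hg19 chr11:104896170-104972158, minus strand) measured 7.57, 10.7 and 8.87 scaled TPM in controls 1 to 3 and 14.9, 18.2 and 13.8 in TAZ libraries 1 to 3. The lowest TAZ library was above the highest control. The mean was 9.04 ± 1.55 (SD, n = 3) in controls and 15.6 ± 2.28 (SD, n = 3) in TAZ libraries, 1.73-fold higher. The log2 difference was 0.73 ± 0.19 (SE), with a 95% interval from 0.27 to 1.19, and the adjusted p was 0.118 (limma). All of the signal was assigned to 1 of 21 annotated transcripts, the protein-coding ENST00000533400.1.

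CASP4 (ENSG00000196954.8, hg19 chr11:104813593-104840163, minus strand) was the least abundant of the 7 caspases in the controls. It measured 2.05, 2.64 and 3.98 scaled TPM in controls 1 to 3 and 5.05, 11.6 and 9.75 in TAZ libraries 1 to 3, with TAZ 1 closest to the controls but above all of them. Its mean was 2.89 ± 0.986 (SD, n = 3) in controls and 8.81 ± 3.38 (SD, n = 3) in TAZ libraries, a ratio of 3.05. On the log2 scale the difference was 1.3 ± 0.33 (SE), with a 95% interval from 0.50 to 2.09, and the adjusted p was 0.112 (limma).

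The size of the CASP4 difference depended on which annotated transcript received the reads. In controls 1 to 3 and TAZ 1, the signal was split between the protein-coding ENST00000444739.2, at 0.987, 1.51, 1.85 and 2.89 scaled TPM, and ENST00000529565.1, a transcript typed as a retained intron. In TAZ 2 and TAZ 3 the protein-coding transcript was listed at 0, and a short retained-intron transcript of 921 bases, ENST00000531546.1, carried 9.71 and 8.35 scaled TPM; it was listed at 0 in the other 4 libraries. Since TPM divides by length, reads given to a shorter transcript raise the sum. The bases aligned to CASP4 per aligned gigabase numbered 3677, 4296 and 6926 in controls 1 to 3 and 8365, 10114 and 8429 in TAZ libraries 1 to 3, so TAZ 1 and TAZ 3 were close on this scale.

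Of 2 other measures, the first counts bases over all transcripts of the gene, whichever received them, and the second still reads the coverage that each transcript was given. Both gave a smaller log2 difference for CASP4. On each scale 1 was added before the log, which lowers differences of low values more. Counted as aligned bases per exonic base of the gene, the log2 difference was 0.51 (95% interval -0.01 to 1.03, adjusted p = 0.284, limma). The means on that scale were 1.72 in controls and 2.82 in TAZ libraries. Counted as depth over the exons of protein-coding transcripts, CASP4 was 2.11, 3.09 and 4.47 in controls 1 to 3 and 6.10, 6.82 and 6.01 in TAZ libraries 1 to 3, again without overlap. That log2 difference was 0.83 (95% interval 0.28 to 1.38, adjusted p = 0.107, limma). The ratio of means over coding exons was 1.96, beside 3.05 by summed TPM. CASP1 varied less between the measures, at 0.71 per exonic base (adjusted p = 0.126) and 0.77 over coding exons (adjusted p = 0.0663). The coding-exon fit adjusted over 11928 genes, of which 696 passed, beside 623 of 19390 by summed TPM. Both measures were added after the transcript assignments had been seen.

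**Figure D2:**
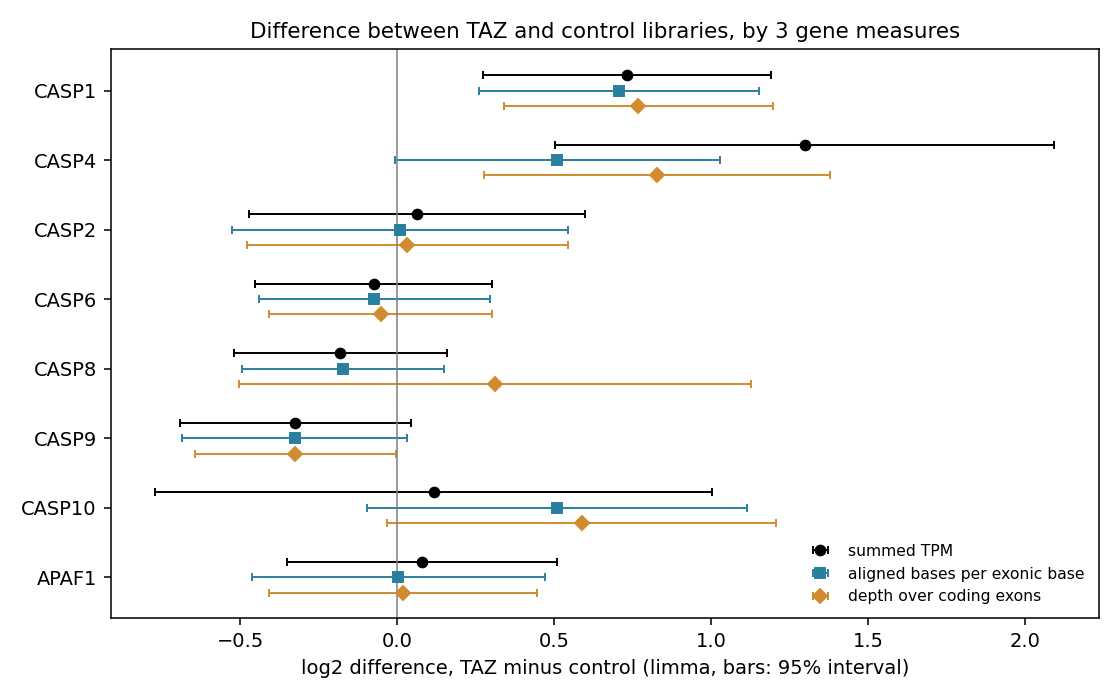
Log2 difference between TAZ and control libraries for each gene (points) with its 95% interval (bars) from limma, by summed TPM, by aligned bases per exonic base and by depth over exons of protein-coding transcripts. CASP4 shrinks from 1.3 to 0.51 and 0.83, and CASP1 stays between 0.71 and 0.77. CASP10 moves from 0.12 to 0.51 and 0.59, and CASP8 changes sign by the third measure. Each measure had 1 added before the log, on scales that differ.

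Among the exons of the CASP4 coding transcript, the exon printed above was the deepest in every library. Bases assigned to other CASP4 transcripts outside these exons are not part of this comparison. This exon (hg19 chr11:104825474-104825728, 255 bases) had a depth of 4.27, 5.79 and 7.22 per aligned gigabase in controls 1 to 3 and 11.8, 15.9 and 14.7 in TAZ libraries 1 to 3, with no overlap and a ratio of means of 2.45. Exon 3 was at 0 in the 3 controls and TAZ 1, and at 1.57 and 1.23 in TAZ 2 and TAZ 3. Exons 5 to 9 lay between 0.318 and 1.45 in every library. Exons 5 to 7 had 1 identical value in each library and the last 2 exons had the same ratio of means, 1.68, so their depths are coverage of a transcript spread over exons and not separate measurements.

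Within CASP1, 2 of the 3 deepest exons by their control means separated the groups. Exon 6 (hg19 chr11:104900392-104900626), the deepest, measured 13.1, 18.8 and 13.8 per aligned gigabase in controls 1 to 3 and 21.5, 33.7 and 25.4 in TAZ libraries 1 to 3. The last exon, of 849 bases, measured 2.91, 3.49 and 3.78 in controls and 5.52, 8.20 and 7.62 in TAZ libraries, and neither of these exons overlapped between the groups. The third, the CARD exon that CASP1 nearly shares with CARD16, overlapped, at 5.58, 8.95 and 4.62 in controls and 7.03, 14.0 and 7.44 in TAZ libraries. The CARD16 copy of this exon was at 1.90, 2.07 and 1.64 in controls and 9.66, 3.68 and 4.76 in TAZ libraries. TAZ 1 was thus the lowest TAZ library for the CASP1 copy and the highest for the CARD16 copy. The overlap for CASP1 here can depend on how reads were split between the 2 genes. In exon 5, TAZ 1 reached 16.3 while TAZ 2 and TAZ 3 were at 4.03 and 4.70.

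**Figure D3:**
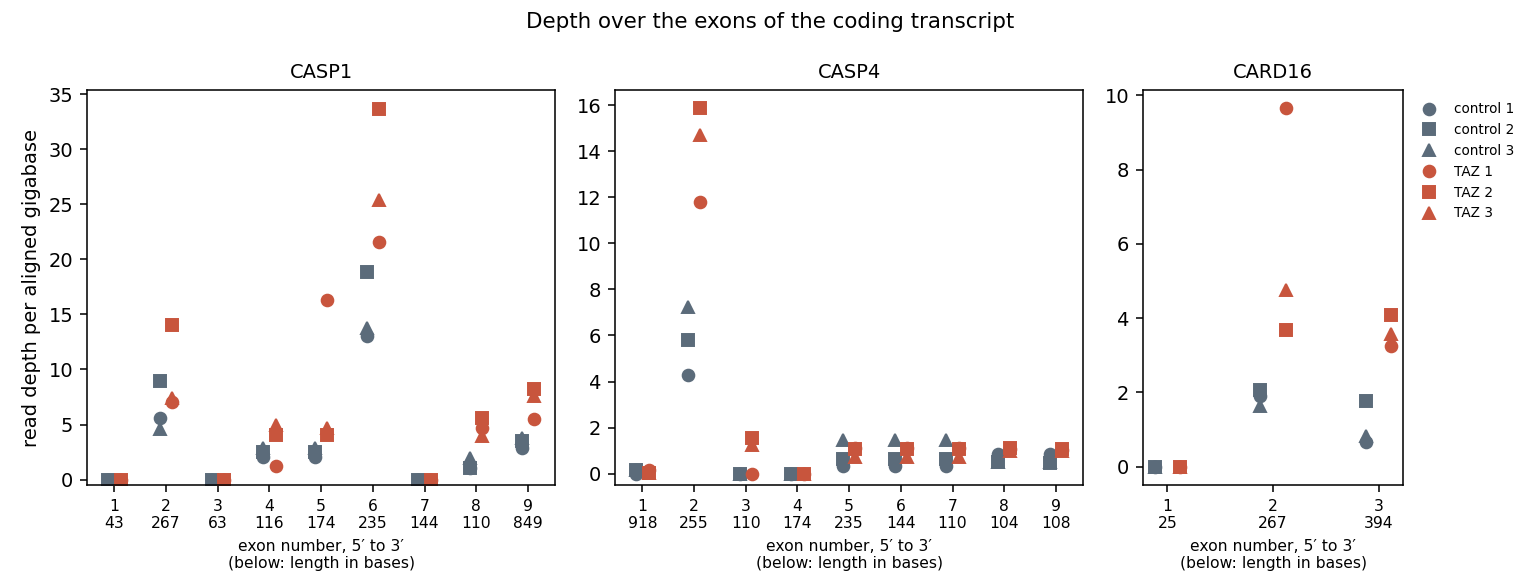
Read depth per aligned gigabase (linear axes, a different range in each panel) over each exon of the coding transcript of CASP1, CASP4 and CARD16, numbered 5′ to 3′ with the length below; points are libraries. The depth of CASP4 is concentrated on exon 2, that of CASP1 on exons 2, 6 and 9, and both deep exons of CARD16 separate the groups. Exon 2 is nearly the same sequence in CASP1 and CARD16, so their depths there depend on how reads were split.

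CARD16, the neighbour that shares the CARD exon, measured 2.19, 3.65 and 2.25 scaled TPM in controls 1 to 3 and 11.1, 6.73 and 6.64 in TAZ libraries 1 to 3. Its log2 difference of 1.3 had an unadjusted p of 0.00203 and an adjusted p of 0.0586 in limma. By depth over coding exons the unadjusted p was 0.00178 and the adjusted p was 0.0363 (limma), where it passed. That adjustment ran over fewer genes, 11928 beside 19390, and 696 of the 11928 passed. The last exon of CARD16, outside the shared stretch, measured 0.660, 1.76 and 0.812 per aligned gigabase in controls. In TAZ libraries it measured 3.25, 4.08 and 3.58, with no overlap. When CASP1 was summed with CARD16, CARD17 and CARD18 before the fit, the log2 difference was 0.97 and the adjusted p was 0.0867 (limma). The other inflammatory caspases of the cluster, CASP5 and CASP12, were listed at 0 in every library.

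The 2 death receptor initiators lie side by side on chromosome 2. CASP8 (ENSG00000064012.17, hg19 chr2:202098166-202152434, plus strand) was the most abundant of the 8 genes, with 33.0, 35.2 and 32.0 scaled TPM in controls 1 to 3 and 29.3, 29.8 and 28.8 in TAZ libraries 1 to 3. All TAZ libraries were below all controls, by a small margin. The log2 difference was -0.18 ± 0.14 (SE), with a 95% interval from -0.52 to 0.16 and an adjusted p of 0.537 (limma); its sign was reversed without scaling between libraries (0.07) and over coding exons (0.31).

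Most of this CASP8 signal was on a transcript that is not typed as protein-coding. ENST00000490682.1, a processed transcript at the 5′ end of the gene, held between 62.7% and 86.5% of the CASP8 level, at 23.2, 24.3 and 27.7 scaled TPM in controls 1 to 3 and 21.5, 18.7 and 18.3 in TAZ libraries 1 to 3. The protein-coding ENST00000358485.4 measured 9.78, 10.9 and 4.31 in controls 1 to 3 and 7.80, 11.1 and 10.5 in TAZ libraries 1 to 3. The noncoding transcript was lower in every TAZ library (adjusted p = 0.468, limma over transcripts), and the coding one overlapped, with control 3 lowest.

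CASP10 (ENSG00000003400.10, hg19 chr2:202047604-202094129, plus strand) measured 16.9, 33.3 and 17.0 scaled TPM in controls 1 to 3 and 17.8, 36.0 and 19.2 in TAZ libraries 1 to 3. Library 2 was the highest in both groups, and the groups overlapped. The log2 difference was 0.12, with a 95% interval from -0.77 to 1.00 and an adjusted p of 0.894 (limma), and it was below 0 when control 1, control 3 or TAZ 2 was left out.

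A retained-intron transcript of CASP10 of 703 bases, ENST00000484926.1, was assigned 21.8, 10.3 and 18.2 scaled TPM in control 2, control 3 and TAZ 2, and 0 or 0.00707 in the others. Control 2 and TAZ 2 were also the libraries with the highest CASP10 sums. The main protein-coding transcript, ENST00000286186.6, measured 14.5, 9.84 and 6.67 in controls 1 to 3 and 14.1, 14.5 and 18.1 in TAZ libraries 1 to 3. By aligned bases per exonic base, the log2 difference of CASP10 was 0.51 (adjusted p = 0.346, limma). By depth over coding exons, CASP10 was 22.8, 17.6 and 11.6 in controls and 23.3, 24.9 and 29.1 in TAZ libraries, so that every TAZ library was above every control. The log2 difference on that measure was 0.59 (95% interval -0.03 to 1.21, adjusted p = 0.254, limma).

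**Figure D4:**
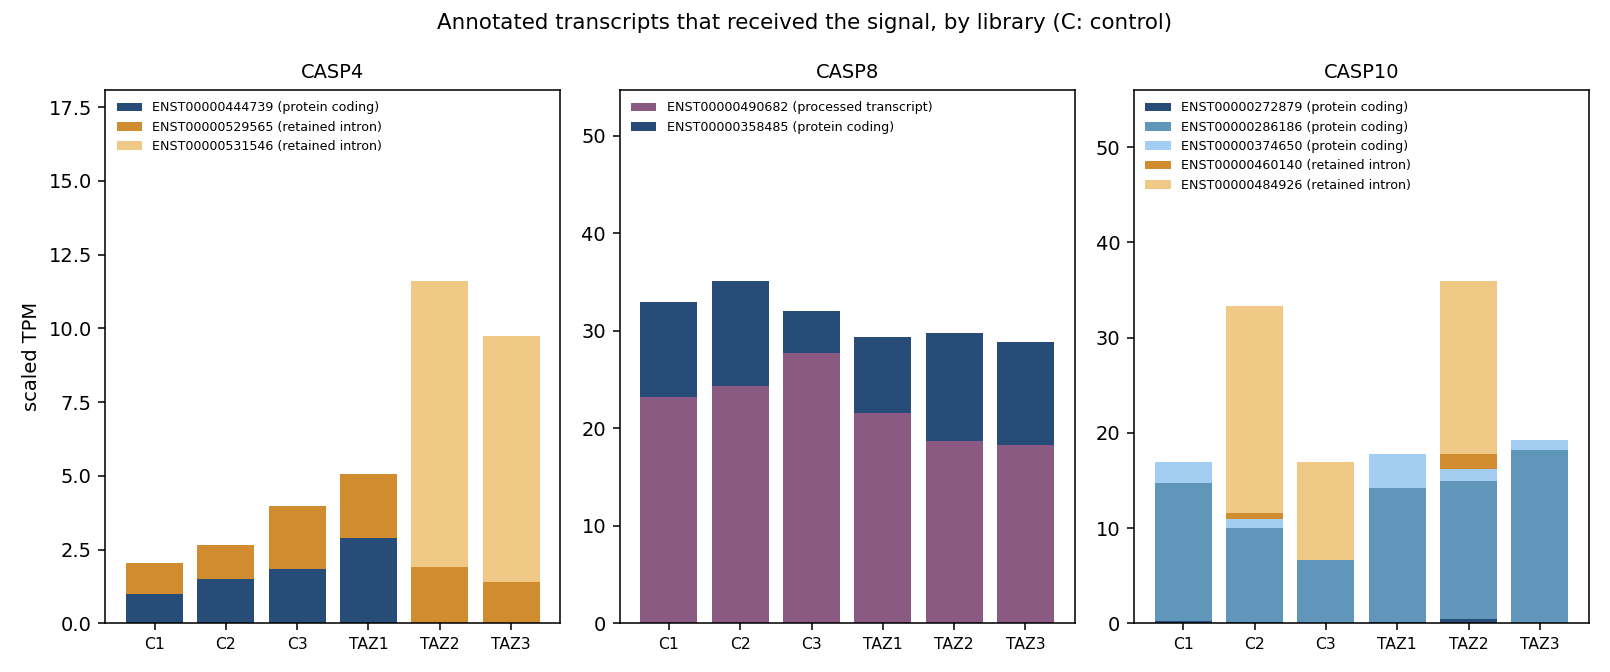
Scaled TPM of the annotated transcripts of CASP4, CASP8 and CASP10 in each library (stacked bars from 0; C1 to C3 are controls), coloured by transcript type. The short retained-intron transcripts appear in TAZ 2 and TAZ 3 for CASP4 and in control 2, control 3 and TAZ 2 for CASP10, and a processed transcript makes up most of CASP8 in every library.

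Both members of the apoptosome axis were low. CASP9 (ENSG00000132906.13, hg19 chr1:15817327-15853029, minus strand) measured 5.68, 5.44 and 5.33 scaled TPM in controls 1 to 3 and 4.02, 3.89 and 4.64 in TAZ libraries 1 to 3, without overlap. The log2 difference was -0.33 ± 0.15 (SE), with a 95% interval from -0.69 to 0.04 and an adjusted p of 0.327 (limma), and it moved to -0.11 without scaling. All of the signal was assigned to the protein-coding ENST00000546424.1. The difference was of the same size by the other measures, -0.33 per exonic base and -0.32 over coding exons.

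APAF1 (ENSG00000120868.9, hg19 chr12:99038919-99129204, plus strand) measured 1.14, 1.00 and 1.299 scaled TPM in controls 1 to 3 and 1.25, 1.39 and 1.15 in TAZ libraries 1 to 3. The groups overlapped, and the log2 difference of 0.08 had a 95% interval from -0.35 to 0.51 (adjusted p = 0.848, limma). The signal was assigned to the protein-coding ENST00000551964.1 in all libraries but control 3, where it was on the longer protein-coding ENST00000357310.1. Between 4530 and 5557 aligned bases lay behind each APAF1 value, and 22 of the 27 exons of its coding transcript were at 0 in every library, so its level rested on few exons.

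CASP2 (ENSG00000106144.15, hg19 chr7:142985308-143004789, plus strand) measured 25.1, 19.7 and 14.8 scaled TPM in controls 1 to 3 and 18.2, 22.8 and 20.3 in TAZ libraries 1 to 3. The controls spanned all TAZ libraries, and the log2 difference was 0.06, with a 95% interval from -0.47 to 0.60 (adjusted p = 0.905, limma). Nearly all of it was on the protein-coding ENST00000310447.5, apart from 4.29 scaled TPM on the processed transcript ENST00000493642.1 in TAZ 3. CASP2 was the only one of the 8 genes with depth, in at least 1 library, on every exon of its coding transcript, 11 in all. CASP6 (ENSG00000138794.5, hg19 chr4:110609785-110624739, minus strand) measured 15.1, 14.3 and 14.9 in controls 1 to 3 and 15.7, 12.3 and 14.0 in TAZ libraries 1 to 3. Its groups also overlapped, and the log2 difference of -0.08 (95% interval -0.45 to 0.30, adjusted p = 0.829, limma) turned to 0.17 without scaling. All of the CASP6 signal was on the protein-coding ENST00000352981.3. Leaving out the scaling moved the median of all tested genes from -0.05 to 0.17, so unscaled CASP6 lay at that median and unscaled CASP8, at 0.07, below it.

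Over the 8 genes, 35 of the 87 exons of the leading coding transcripts had no depth in any library. These were 7 of the 13 exons of up to 100 bases, 20 of the 35 exons from there up to 150 bases and 8 of the 39 longer exons. No transcript of the 8 genes passed limma over transcripts, against 1.6% of all tested transcripts.

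By summed TPM, the genes ranked in the controls as CASP8 (33.4 ± 1.62 scaled TPM, SD, n = 3), CASP10 (22.4 ± 9.44), CASP2 (19.8 ± 5.13), CASP6 (14.8 ± 0.418), CASP1, CASP9 (5.48 ± 0.177), CASP4 and APAF1 (1.15 ± 0.148). CASP10 overlapped CASP8 above it and CASP2 below it, and CASP2 overlapped CASP6, while the lower ranks did not overlap their neighbours. In the TAZ libraries the order was CASP8 (29.3 ± 0.480), CASP10 (24.3 ± 10.1), CASP2 (20.4 ± 2.27), CASP1, CASP6 (14.0 ± 1.71), CASP4, CASP9 (4.18 ± 0.398) and APAF1 (1.26 ± 0.121). CASP10 overlapped CASP8 and CASP2 there too, the lowest CASP2 library lay just above the highest CASP1 library, CASP1 overlapped CASP6, and CASP4 stood above CASP9 in all 3 TAZ libraries, having been below it in all 3 controls. These orders hold for summed TPM. Over coding exons, the highest control means were those of CASP2 (33.6), CASP6 (17.9) and CASP10 (17.3), with CASP1 at 11.47 and CASP8 at 10.8. On that measure CASP4 was above CASP9 in TAZ 2 and below it in TAZ 1 and TAZ 3, and per exonic base its TAZ mean was 2.82, beside 4.45 for CASP9. CASP1 and CASP4 together made up 9.13%, 10.98% and 13.3% of the summed level of the 7 caspases in controls 1 to 3, and 19.0%, 22.1% and 21.3% in TAZ libraries 1 to 3. Over coding exons this share was 10.01%, 15.5% and 18.6% in controls and 21.9%, 23.3% and 19.4% in TAZ libraries, again without overlap but with control 3 close to TAZ 3.

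Among partners upstream of CASP1, the inflammasome list had 7 of 11 genes tested, of which 2 rose and none fell. AIM2, a sensor of cytosolic DNA, measured 1.44, 1.51 and 1.20 scaled TPM in controls 1 to 3 and 16.4, 14.8 and 11.8 in TAZ libraries 1 to 3 (log2 difference 2.68, adjusted p = 0.000951, limma). NLRP1, a sensor that activates CASP1, measured 1.499, 1.29 and 1.16 in controls and 4.03, 4.61 and 3.42 in TAZ libraries (log2 difference 1.11, adjusted p = 0.0258, limma). The adaptor PYCARD, which bridges sensors to CASP1, varied from 0.112 to 44.9 within the controls and from 27.0 to 73.4 in the TAZ libraries, and its log2 difference of 1.90 did not pass (adjusted p = 0.498, limma). NLRP3 and MEFV were below 0.15 scaled TPM in every library.

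Downstream of CASP1 and CASP4, 3 of 7 pyroptosis genes were tested, and none passed. The shared substrate GSDMD measured 8.50, 7.53 and 12.5 scaled TPM in controls 1 to 3 and 17.4, 12.4 and 8.56 in TAZ libraries 1 to 3, with overlap (adjusted p = 0.547, limma). IL1B and IL18, the cytokine precursors cut by CASP1, were at or below 0.148 scaled TPM in every library.

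Partners of the apoptotic caspases also did not pass. None of 10 tested death receptor genes, 9 apoptosome and inhibitor of apoptosis genes and 2 PIDDosome genes passed in limma. In the death receptor list, every TAZ library was above every control for 1 gene and below for 2. The apoptosome and inhibitor list also had 1 above and 2 below, and the PIDDosome list had 0 and 0. Over all tested genes the shares were 10.1% above and 14.8% below. FADD, the adaptor of CASP8 and CASP10, measured 77.6, 78.0 and 77.8 scaled TPM in controls 1 to 3 and 70.8, 59.0 and 52.8 in TAZ libraries 1 to 3, below all controls (log2 difference -0.36, adjusted p = 0.321). XIAP, which inhibits CASP9, was at 4.68, 3.68 and 4.04 in controls and at 5.09, 6.82 and 6.08 in TAZ libraries, above all controls (log2 difference 0.44, adjusted p = 0.263).

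CASP1 and CASP4 are known to respond to interferon, and the interferon transcription factors IRF1 and STAT2 rose in the TAZ libraries. IRF1 measured 6.28, 6.07 and 5.65 scaled TPM in controls 1 to 3 and 86.7, 73.2 and 77.9 in TAZ libraries 1 to 3 (log2 difference 3.52, adjusted p = 0.000228, limma). STAT2 measured 33.4, 34.6 and 27.1 in controls and 116.5, 106.6 and 92.6 in TAZ libraries (log2 difference 1.70, adjusted p = 0.00424, limma). Whether the CASP1 and CASP4 levels depend on these genes was not tested. IRF2 was below all controls in every TAZ library and did not pass (adjusted p = 0.212).

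The tested genes whose pattern over the 6 libraries was most like that of CASP4, the member with the smallest p, were TBC1D23 (Pearson r = 0.987), HPS3 (0.985), MYL12A (0.983), TMEM237 (0.981) and CCT6P1 (0.980), out of 12546 genes compared. These correlations describe 6 libraries in 2 groups that share the group difference. By summed TPM, CASP4, TBC1D23, HPS3, MYL12A and TMEM237 were highest in TAZ 2, then TAZ 3, then TAZ 1, while CCT6P1 was highest in TAZ 3. Over coding exons CASP4 was highest in TAZ 2, then TAZ 1, then TAZ 3.

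Promoter windows from 250 bases before to 50 bases after the start site were available in RefSeq (GRCh38.p14) for 6 of the 8 genes, in 10 windows. On either strand, the core of the interferon-stimulated response element (ISRE) was found in 1 of the 6 genes, CASP8, beside 3.57% of 35116 windows of all genes. The gamma-activated site TTCNNNGAA was also found in CASP8 (7.66% of all windows), as was the AP-1 motif TGANTCA (7.71%). The TEAD motif GGAATG was found in CASP9, 95 bases before a start site (14% of all windows). No window of CASP4, CASP2, CASP6 or APAF1 held any of these letters. CASP1 and CASP10 had no window and were not searched. The percentages are per window, whereas the members are counted per gene.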

How the data were processed

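RNA of 3 control and 3 TAZ libraries was sequenced on an Ion Torrent Proton, per the labels' protocols. The submitters' processing notes name STAR 2.3.0, Bowtie2 2.0.0, hg19 and StringTie 1.3.3b. StringTie was run on 1 library at a time with a supplied annotation, per the file headers; its release and the use of strand are not given in the sources used here. The values the authors deposited are TPM, FPKM and coverage for 195984 transcripts; no read counts were used.

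Deposited TPM was summed per gene and divided by the median of ratios over the 28148 genes above 0 in every library (factors 0.873 to 1.23). Genes averaging 1 TPM or more entered a fit of log2(scaled TPM + 1) with limma 3.58.1 (R 4.3.3; lmFit, eBayes with trend and robust, two-sided), adjusted by Benjamini-Hochberg over all 19390 tested genes at 0.05. This scale understates differences of low genes. Transcripts with a mean of at least 1 scaled TPM (29177) were tested likewise. Total aligned bases were recovered from the ratio of deposited coverage to FPKM. Exon depth sums all transcripts of a gene, base by base. StringTie gives each gene's reads to few transcripts, and reads common to paralogs or overlapping genes can be split wrongly. Transcript types and sequences came from GENCODE 29 by transcript ID. The fit was tested on simulated data. No design beyond the 2 groups is stated, so the main fit had no block. Same-numbered libraries did not deviate together. All 8 genes were named, with up to 2 leading transcripts each. Genes of the lists were named where they passed or were direct partners. IRF2, NLRP3, MEFV, TRADD, CFLAR, PIDD and CRADD were named after their values were seen. Members and lists were chosen with earlier results of these data known. In bulk RNA, fewer cells that express a gene and less RNA per cell cannot be told apart. Some genes of the lists are not reported here.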

Additional observations from a re-analysis of the deposited data

How the results depend on the processing

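None of the 8 genes passed in any of the 15 to 17 other settings run for each. CASP1 and CASP4 stayed above 0 in all of theirs, CASP1 between 0.62 and 0.97 and CASP4 between 0.51 and 1.61. The lowest adjusted p in limma was 0.0663 for CASP1 (coding exons, with 11928 genes tested) and 0.0533 for CASP4 (without TAZ 1). Without TAZ 2 the adjusted p was 0.384 for CASP1 and 0.345 for CASP4. CASP9 stayed below 0 and APAF1 above 0 throughout. Without scaling CASP6 was 0.17 and CASP8 0.073, and over coding exons CASP8 was 0.31. Leaving out 1 library at a time gave -0.19 to 0.43 for CASP10, -0.13 to 0.24 for CASP2 and -0.16 to 0.0052 for CASP6; the causes were not tested. Genes called numbered 278 (without TAZ 2) to 774 (without control 3), 349 without control 2, 331 without TAZ 3 and 410 without control 1, and 352 with no filter, where more genes were tested. Without scaling, 533 were higher and 85 lower, beside 436 and 187. Transcripts called numbered 266 (without TAZ 2) to 762 (without control 3), 297 without TAZ 3, and 193 with no filter. Same-numbered libraries had correlations of 0.0040, -0.024 and -0.055; with the replicate number as a block, 236 genes and 0 transcripts were called by limma, the latter with 2666 at an unadjusted p under 0.05. The 2 measures per gene were not run for transcripts. The median SE of 0.24 on the log2 scale limited what could be resolved, and no depth interval was given since reads were not counted.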

Other observations

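Genes whose products the effector caspases cut were also measured, from the same lists. Of 12 substrates tested, none passed in limma, and their median log2 difference was 0.04 beside -0.05 for all tested genes. Gelsolin (GSN), an actin-severing protein, measured 0.532, 0.716 and 1.84 scaled TPM in controls 1 to 3 and 4.57, 2.51 and 3.20 in TAZ libraries 1 to 3, above all controls (log2 difference 1.15, adjusted p = 0.122, limma). PARP1, a DNA repair enzyme, measured 91.1, 118.0 and 91.8 in controls and 80.1, 74.9 and 88.2 in TAZ libraries, below all controls (log2 difference -0.30, adjusted p = 0.420, limma). DFFA, the inhibitor of the apoptotic nuclease, was 18.6 ± 1.39 (SD, n = 3) in controls and 15.1 ± 0.442 (SD, n = 3) in TAZ libraries, also below all controls (adjusted p = 0.364, limma). SPTAN1 was 31.3 ± 2.03 (SD, n = 3) in controls and 46.2 ± 11.7 (SD, n = 3) in TAZ libraries, above all controls (adjusted p = 0.292, limma). Of the 12 substrates, 2 were above all controls and 2 below, beside 10.1% and 14.8% of all tested genes. GSN, PARP1, DFFA and SPTAN1 were picked from the list after their values were seen.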
